A study of Homo sapiens with 12 samples.

Results

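A set of 10 transcripts that govern the passage of a cell from G1 into S phase was followed in T24 cells, a long-established human bladder carcinoma line. They are the 3 D-type cyclins (CCND1, CCND2, CCND3), the 2 kinases that the D-type cyclins activate (CDK4, CDK6), 2 inhibitors of the INK4 family (CDKN2B, CDKN2C) and the 3 inhibitors of the CIP/KIP family (CDKN1A, CDKN1B, CDKN1C). The members were taken by gene symbol from a table of 60603 genes, and 9 of the 10 passed the filter on low counts that left 17775 genes for testing. Poly(A) RNA was sequenced in 12 libraries, 3 in each of 4 groups, with 10593934 to 20266996 counts assigned to genes per library. One pair of groups is T24 with the genotype label WT, untreated or given 5-Ad-IAA. The other pair is T24 with the genotype label NS1, untreated or given 5-Ad-IAA. 5-Ad-IAA is an auxin derivative used as the inducer of auxin-dependent protein degradation, and the series concerns AlissAID, in which a binding protein brings an endogenous protein that carries no tag to such a ubiquitin ligase. What NS1 stands for is not in the labels (a monobody, an engineered binder of RAS, bears this name), and they give no dose, no time of treatment and no number of clones. Libraries are numbered 1 to 3 within each group, and nothing in the labels says that they came from separate cultures, so the p-values measure the spread between these libraries only.

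In G1, D-type cyclins bind CDK4 or CDK6, and the complexes phosphorylate the retinoblastoma protein and its relatives, which releases E2F transcription factors to switch on the genes of DNA replication. INK4 proteins bind CDK4 and CDK6 and keep the cyclin away. CIP/KIP proteins (p21, p27 and p57, encoded by CDKN1A, CDKN1B and CDKN1C) bind whole cyclin-CDK complexes and chiefly restrain CDK2, the kinase partner of cyclins E and A. Transcription of CCND1 is a well known output of RAS-ERK signalling, whereas CDKN1B and other brakes are targets of FOXO factors.

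Transcripts of the epithelial keratins KRT7, KRT8, KRT18 and KRT19 and of the urothelial factors GATA3 and PPARG were present in all 12 libraries. The urothelial genes UPK1B, UPK3A and KRT20, the adhesion gene CDH1 and the leukocyte gene PTPRC were at or near 0 in each. These are part of a list of 18 cell markers, of which 13 passed the filter on low counts. The list also held the mesenchymal genes VIM, CDH2 and FN1, and UPK2 and EPCAM, whose levels are not given here. Replicate 1 stood apart from replicates 2 and 3 in every group, and the labels name no batch, so values without replicate 1 are also given where it decided a call or carried the size of a difference.

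Where the RefSeq upstream sequences used here held a member, a window of 250 bases before the transcription start was searched on both strands. The search was for 6 motifs that occur in cell cycle promoters. The windows of 7 members were found, and CCND1, CCND2 and CDKN1C had none in the sequences used. Of the stretches, 2 are shown because CCND3 and CDKN2C were the members that fell with 5-Ad-IAA in NS1 cells in the paired fit described below. Both are stretches in which GENCODE release 29 places no exon, and capitals mark every match to a searched motif. The CCND3 stretch lies on the minus strand of GRCh38 at chr6:41941849-41942058 and holds a CCAAT box (CCAAT) and a GC box (GGGCGG, here on the other strand). The CDKN2C stretch lies on the plus strand at chr1:50960495-50960744 and holds an E-box (CACGTG) and a forkhead core (TGTTTA, here on the other strand).
CCND3: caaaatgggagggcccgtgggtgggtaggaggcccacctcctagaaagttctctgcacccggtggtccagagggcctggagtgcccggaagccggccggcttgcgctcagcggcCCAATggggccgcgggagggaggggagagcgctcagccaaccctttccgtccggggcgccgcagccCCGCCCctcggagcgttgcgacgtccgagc
CDKN2C: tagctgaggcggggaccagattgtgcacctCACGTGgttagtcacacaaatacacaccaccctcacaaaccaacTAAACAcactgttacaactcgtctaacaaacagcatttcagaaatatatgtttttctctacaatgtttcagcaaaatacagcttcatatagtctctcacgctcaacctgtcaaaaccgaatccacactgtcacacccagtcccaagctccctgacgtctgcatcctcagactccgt

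CCND3 and CDKN2C have 3 RefSeq windows each, so these stretches stand for 1 of several starts, and the motifs depend on the start. Other CCND3 windows held 5 GC boxes (chr6:42048689-42048938) and 1 CCAAT box (chr6:41939206-41939455, also free of exons). Other CDKN2C windows held 5 GC boxes (chr1:50968456-50968705) and 1 each of E-box, CCAAT box and GC box (chr1:50969995-50970244). The window of CDKN1B (chr12:12717118-12717367) held 2 CCAAT boxes, 1 GC box and 1 forkhead core, and 244 of its 250 bases lie in an annotated exon. The window of CDK4 (chr12:57752311-57752560) held 3 E-boxes and 3 GC boxes. Among all 35116 RefSeq windows of this length, 32.0% held a CCAAT box, 42.6% a GC box, 10.99% a forkhead core, 6.34% an E-box and 6.57% an AP-1 site (TGANTCA). An E2F site (TTTGGCGC, TTTCCCGC, TTTGCCGC or TTTCGCGC) was in 2.79% of all windows, and these letters were in none of the windows found for members. That leaves out CCND1, CCND2 and CDKN1C.

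The members spanned a wide range of transcript levels. Normalised CPM (counts scaled to library size, with TMM factors) were divided by the length of all annotated exons for comparison between genes. On this scale CCND1 was the highest, at 207 ± 38.4 CPM per kb (SD over the 12 libraries), followed by CDK4 at 54.6 ± 7.94 and CDKN1A at 27.3 ± 7.35 CPM per kb. CDKN1B (15.1 ± 1.97), CDKN2C (12.6 ± 1.92) and CCND3 (9.24 ± 1.65 CPM per kb) followed, and neighbours in this middle group overlapped in their ranges. CDKN1A overlapped with CDKN1B as well. CDKN1C, at 4.58 ± 6.09 CPM per kb, ran from 0.651 to 21.4 and so overlapped with CDKN1A, CDKN1B, CDKN2C, CCND3, CDKN2B and CDK6. CDKN2B (3.15 ± 0.940) and CDK6 (2.36 ± 0.666 CPM per kb) overlapped with each other. With the longest transcript as the length, CCND3 came to 22.4 CPM per kb and stood above CDKN1B and CDKN2C. CCND1 made up 94.8% ± 1.26 of the per-length signal of the D-type cyclins in untreated WT cells and 96.7% ± 0.171 in treated NS1 cells (SD, n = 3). CDK4 made up 93.0% to 97.8% of the per-length signal of the 2 kinases in every library, so cyclin D1 and CDK4 were the main transcripts of their classes in these cells.

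Among the D-type cyclins, which link growth signals to CDK4 and CDK6, CCND1 was abundant in all groups, and in WT cells it differed more between replicates than between treatments. CCND1 (chr11:69641087-69654474) had 651, 1164 and 1005 CPM in untreated WT cells and 622, 1095 and 1136 CPM in treated WT cells (replicates 1, 2 and 3). In NS1 cells it had 1093, 1114 and 1125 CPM untreated and 882, 1070 and 1059 CPM treated. Replicate 1 was the low library in both WT groups and in treated NS1 cells, and the treated NS1 libraries all lay below the untreated ones. The log2 fold change with 5-Ad-IAA in NS1 cells was -0.15 (SE 0.22, edgeR adjusted p 0.785), and the changes within replicate numbers were -0.31, -0.06 and -0.09. LTO1, on the opposite strand, shares 10.3% of the exon bases of CCND1 and averaged 135 CPM. Without a strand-specific count the CCND1 counts are uncertain in that part, in a direction that depends on settings not given.

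CCND3, the cyclin D3 gene (chr6:41934933-42050357), had 54.7, 58.4 and 66.0 CPM in untreated WT cells and 52.6, 63.1 and 63.2 CPM in treated WT cells. It had 46.4, 57.4 and 58.4 CPM in untreated NS1 cells and 33.7, 44.4 and 44.8 CPM in treated NS1 cells. The 3 treated NS1 libraries were the lowest of the 12, below untreated NS1 and below both WT groups. The log2 fold change with 5-Ad-IAA was -0.40 in NS1 cells (SE 0.14, adjusted p 0.111) and near 0 in WT cells (-0.0019 with TMM and 0.0029 with RLE size factors, adjusted p 1). Within replicate numbers the NS1 changes were -0.46, -0.37 and -0.38. CCND2, the cyclin D2 gene, had 0 or 1 count in every library, at or below the floor of 3 counts, which corresponds to 0.141 to 0.290 CPM, and was not tested. AC008012.1, a gene on the same strand that shares 13.8% of the exon bases of CCND2, averaged 16.3 CPM.

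Of the 2 kinases, CDK4 was the abundant one and CDK6 the variable one. CDK4 had 195, 158 and 192 CPM in untreated WT cells and 225, 191 and 170 CPM in treated WT cells. It had 154, 172 and 179 CPM in untreated NS1 cells and 132, 151 and 157 CPM in treated NS1 cells. The treated NS1 libraries lay below all 6 WT libraries and overlapped with untreated NS1. Each was lower than the untreated NS1 library of the same replicate number, by -0.22, -0.19 and -0.20 on the log2 scale. The labels do not say that equal numbers mark pairs. The fitted change with 5-Ad-IAA in NS1 cells was -0.20 (SE 0.13, adjusted p 0.418). TSPAN31, on the opposite strand, shares 43.2% of the exon bases of CDK4 in GENCODE release 29 and averaged 92.8 CPM, and the use of strand in counting is not given in the sources used here, so the CDK4 counts are uncertain in that part.

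CDK6 (chr7:92604921-92836594) had 38.2, 36.0 and 16.8 CPM in untreated WT cells and 30.3, 22.9 and 20.4 CPM in treated WT cells. It had 44.6, 26.8 and 26.8 CPM in untreated NS1 cells and 33.9, 29.2 and 21.2 CPM in treated NS1 cells. All 4 groups overlapped, and replicate 1 was the highest library in each of them. The log2 fold change with 5-Ad-IAA was -0.22 in NS1 cells (SE 0.29, adjusted p 0.741) and -0.31 in WT cells (SE 0.29, adjusted p 1).

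The INK4 inhibitors, which occupy CDK4 and CDK6 in place of a cyclin, differed in how they behaved. CDKN2B, the p15 gene and a known target of TGF-beta signalling, had 12.9, 15.2 and 12.6 CPM in untreated WT cells and 13.6, 12.02 and 14.3 CPM in treated WT cells. It had 5.12, 17.3 and 16.2 CPM in untreated NS1 cells and 5.41, 14.8 and 13.9 CPM in treated NS1 cells. Replicate 1 of the NS1 line was low in both treatments, at 0.305 and 0.378 of the mean of the other two replicates, while replicate 1 of WT cells was not (0.933 and 1.03). The fitted change with 5-Ad-IAA in NS1 cells was -0.19 (SE 0.40, adjusted p 0.849).

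CDKN2C, the p18 gene, whose transcript is itself under E2F control in proliferating cells, had 51.7, 40.2 and 43.6 CPM in untreated WT cells and 52.6, 41.3 and 41.5 CPM in treated WT cells. It had 47.0, 42.2 and 38.8 CPM in untreated NS1 cells and 38.9, 32.1 and 32.5 CPM in treated NS1 cells. The treated NS1 libraries lay below all 6 WT libraries, and the highest of them just reached the range of untreated NS1. Each was lower than the untreated NS1 library of the same number, by -0.27, -0.39 and -0.25. The fitted change was -0.30 (SE 0.14, edgeR adjusted p 0.229).

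Among the CIP/KIP inhibitors, CDKN1B and CDKN1C rose with 5-Ad-IAA in NS1 cells in the paired fit described below, and CDKN1A was not called. CDKN1A, the p21 gene and the best known cell cycle target of p53 (chr6:36676460-36687339), had 46.2, 98.9 and 96.5 CPM in untreated WT cells and 50.3, 109 and 105 CPM in treated WT cells. It had 47.5, 87.7 and 88.2 CPM in untreated NS1 cells and 85.7, 86.9 and 95.6 CPM in treated NS1 cells. In 3 of the 4 groups replicate 1 had 0.469 to 0.541 of the mean of the other two, and in treated NS1 cells it had 0.939. The changes with 5-Ad-IAA within replicate numbers were therefore unequal in NS1 cells, at 0.85, -0.01 and 0.12. The fitted log2 fold change was 0.27 (SE 0.32, adjusted p 0.716), and without replicate 1 it was 0.06 (adjusted p 0.785).

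CDKN1B, the p27 gene, had 41.4, 40.3 and 39.3 CPM in untreated WT cells and 40.4, 38.0 and 37.6 CPM in treated WT cells. It had 36.2, 43.3 and 40.7 CPM in untreated NS1 cells and 46.1, 52.99 and 52.7 CPM in treated NS1 cells. The 3 treated NS1 libraries lay above the other 9, in which the level ran from 36.2 to 43.3 CPM. The log2 fold change with 5-Ad-IAA was 0.34 in NS1 cells (SE 0.10, adjusted p 0.0655) and -0.06 in WT cells (SE 0.10, adjusted p 1). Within replicate numbers it was 0.35, 0.29 and 0.37 in NS1 cells, a difference of about the same size in each pair.

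CDKN1C, the p57 gene, which lies in an imprinted region of chromosome 11 (chr11:2883213-2885773) and is transcribed from the maternal copy, was the member with the widest range. It had 2.30, 2.55 and 3.19 CPM in untreated WT cells and 1.61, 2.08 and 1.89 CPM in treated WT cells. It had 22.2, 6.40 and 4.71 CPM in untreated NS1 cells and 52.9, 17.2 and 19.1 CPM in treated NS1 cells. All 6 NS1 libraries lay above all 6 WT libraries. Within NS1 cells each treated library lay above the untreated one of the same number, although replicate 1 untreated was higher than replicates 2 and 3 treated. The changes within replicate numbers were 1.26, 1.43 and 2.02 in NS1 cells and -0.51, -0.30 and -0.75 in WT cells. CDKN1C made up 2.63% ± 0.436 of the per-length signal of the CIP/KIP genes in untreated WT cells, 11.2% ± 11.01 in NS1 cells without 5-Ad-IAA and 19.5% ± 11.2 in NS1 cells with 5-Ad-IAA (SD, n = 3). The NS1 shares by replicate were 23.9%, 5.52% and 4.20% untreated and 32.4%, 12.8% and 13.3% treated, so without replicate 1 the means were 4.86% and 13.1%.

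**Figure D1:**
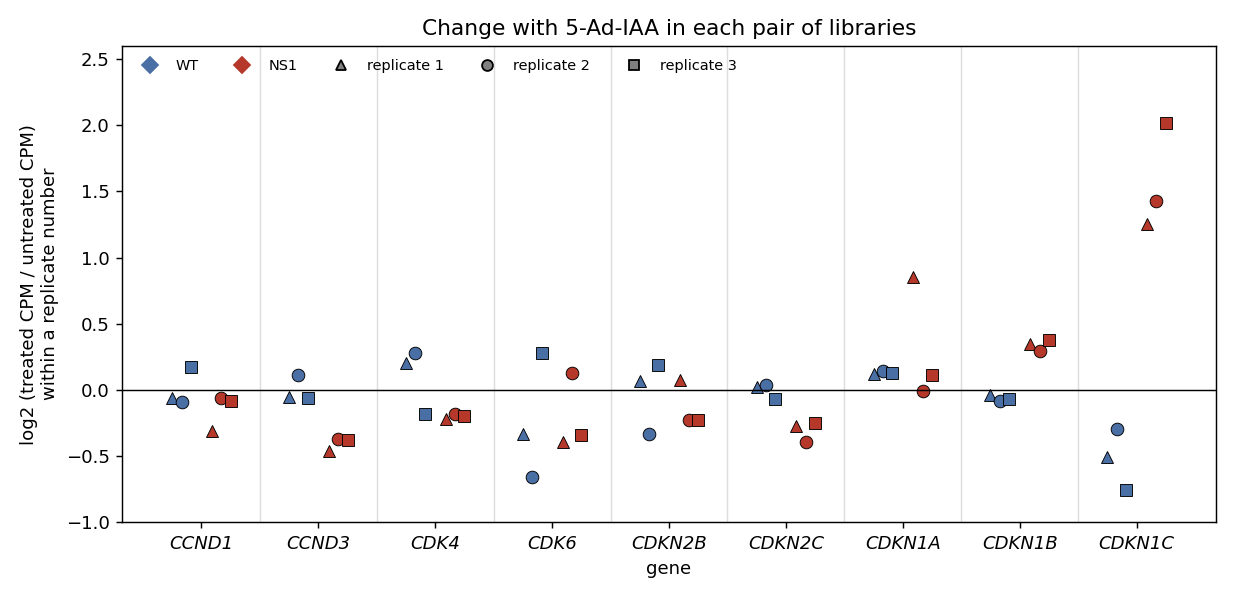
Log2 ratio of treated to untreated CPM within each replicate number (y axis) for the 9 members (x axis), in WT and NS1 cells; each symbol is 1 pair of libraries. In NS1 cells the 3 pairs of CDKN1B lie between 0.29 and 0.37, those of CDKN1C between 1.26 and 2.02, and those of CCND3 between -0.46 and -0.37.

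The first comparison asked whether 5-Ad-IAA changed these transcripts in NS1 cells. Unpaired, edgeR called 0 of the 9 members at an adjusted p under 0.05, beside 6.15% of all genes tested (2.76% higher and 3.39% lower), and 4 members had an unadjusted p under 0.05, beside 20.8% of all genes. DESeq2 called 1 member, CDKN1B (adjusted p 0.0408), beside 8.27% of all genes. By the rule given below, the replicate numbers were judged to pair the libraries in this comparison. That rule could not separate replicate 2 from replicate 3, because unlike numbers correlated about as well as like ones. With the number as a block within each line, 4 members were called: CDKN1B rose by 0.34 (SE 0.071, adjusted p 0.0027), CDKN1C rose by 1.46 (SE 0.12, adjusted p 1.33e-06), CCND3 fell by 0.40 (SE 0.074, adjusted p 0.00094) and CDKN2C fell by 0.30 (SE 0.075, adjusted p 0.0074). This fit called 25.9% of all genes, 13% higher and 12.8% lower, so being called in this fit does not set the members apart from other genes. CDKN1A (adjusted p 0.0661) and CDK4 (adjusted p 0.0926) were not called in the paired fit either.

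Groups that did not overlap were found for 3 members in this comparison, CCND1 and CCND3 lower and CDKN1B higher with 5-Ad-IAA, beside 27.2% of all genes. Without replicate 1, 3 members were called unpaired beside 11.4% of all genes, namely CDKN1C (1.69, adjusted p 0.000152), CCND3 (-0.37, adjusted p 0.0345) and CDKN1B (0.33, adjusted p 0.0474). Leaving out untreated NS1 replicate 1 alone raised the change of CDKN1C from 1.41 to 2.42 (adjusted p 0.0163), whereas leaving out treated NS1 replicate 1 alone lowered it to 0.68 (adjusted p 0.420). The latter fit brought CDKN1B over the threshold (0.40, adjusted p 0.0443). Without replicate 2, and without replicate 3, no member and no gene was called by edgeR, where 2047 and 2048 genes passed an unadjusted p of 0.05. Scaled by library totals instead of TMM, the calls over all genes moved from 490 higher and 603 lower to 370 higher and 759 lower, and CCND3 alone of the members was called (-0.46, adjusted p 0.040), beside 6.35% of all genes.

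In WT cells, which test what 5-Ad-IAA does by itself, edgeR called 0 of the 9 members unpaired beside 0% of all genes, and 0 of 9 beside 0% with the block within each line. DESeq2 also called 0 genes, and 94 genes and 0 members had an unadjusted p under 0.05 in the unpaired fit. The member with the widest difference was CDKN1C, at -0.51 (SE 0.67, adjusted p 1), whose treated and untreated libraries did not overlap, beside 3.41% of all genes. The treated WT libraries were the lower ones, at 1.61 to 2.08 CPM against 2.30 to 3.19 CPM. In NS1 cells the fitted change of CDKN1C was 1.41, and its treated and untreated libraries overlapped.

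Without 5-Ad-IAA, NS1 cells differed from WT cells in 1 of the 9 members, beside 12.5% of all genes (5.45% higher and 7.05% lower). CDKN1C was 2.10 higher on the log2 scale (SE 0.58, adjusted p 0.0311), and its libraries did not overlap, as was the case for 31% of all genes. The size of this difference rested on replicate 1: without it the difference was 0.99 (adjusted p 0.0104) and CDKN1C was still the 1 member called, beside 19.6% of all genes. The call was lost in 4 of the 6 fits that left out 1 library, namely each untreated WT library and untreated NS1 replicate 1, with differences from 1.09 to 2.45 and adjusted p from 0.0213 to 0.182. The other 8 members had differences from -0.14 (CCND3) to 0.24 (CCND1), with adjusted p of 0.528 or more.

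With 5-Ad-IAA in both lines, 4 of 9 members differed, beside 28.2% of all genes. CDKN1C was 4.02 higher in NS1 cells (SE 0.60, adjusted p 0.000364), or 3.30 without treated NS1 replicate 1 and 3.18 without replicate 1 in all groups, and CDKN1B was 0.39 higher (SE 0.10, adjusted p 0.0114). CCND3 was lower by -0.54 (SE 0.14, adjusted p 0.0111) and CDK4 by -0.42 (SE 0.13, adjusted p 0.0271), while CDKN2C, at -0.39, missed the threshold (SE 0.14, adjusted p 0.0509). Groups did not overlap for these 5 members, beside 43.4% of all genes. CDKN1C, CDKN1B and CCND3 kept their call when any 1 of the 6 libraries was left out, and CDK4 kept it in 2 of the 6, losing it without treated replicate 1 or 2 of either line (adjusted p 0.0590 to 0.108). CDKN2C was called without treated NS1 replicate 1 (-0.49, adjusted p 0.0315) and with DESeq2 (adjusted p 0.0486). Without replicate 1, CDK4 was at -0.23 (adjusted p 0.139) and CDKN2C was called (-0.35, adjusted p 0.0209), with 4 members called beside 34% of all genes, and without replicate 2 or replicate 3 CDKN1C was the 1 member called.

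Whether the response to 5-Ad-IAA differed between the lines was tested as an interaction. Unpaired, edgeR called 0 of 9 members, beside 0.0225% of all genes, with 2 members at an unadjusted p under 0.05 beside 12.4% of all genes, and DESeq2 called 0 members. With the block within each line, 3 members were called beside 14% of all genes. The response of CDKN1C was 1.97 higher in NS1 than in WT cells (SE 0.26, adjusted p 0.000237) and that of CDKN1B was 0.40 higher (SE 0.10, adjusted p 0.0162), whereas that of CCND3 was lower by -0.40 (SE 0.10, adjusted p 0.0173). The response of CDKN2C differed by -0.31 (SE 0.10, adjusted p 0.0666) and was not called. Without replicate 1, the unpaired fit called CDKN1C alone of the members (2.20, adjusted p 0.0055), beside 3.24% of all genes.

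Other genes of the G1 machinery were given by lists, which describe the response around the members. The lists were chosen with earlier results of these data known, so their counts are descriptions only. Over all genes, 2.76% were called higher and 3.39% lower with 5-Ad-IAA in NS1 cells unpaired, and 13% and 12.8% in the paired fit. The list of other family members and partners holds cyclins E, A and B, CDK1, CDK2, the CDC25 phosphatases and the CDK-activating kinase. Of its 15 genes, 7 fell with 5-Ad-IAA in NS1 cells and 0 rose, with a median log2 fold change of -0.66 beside 0.0055 over all genes. The paired fit called 10 lower. The 3 lowest called were CDC25A, which removes inhibitory phosphates from CDK2 (-0.87, adjusted p 0.0353), CCNA2, the S phase cyclin (-0.80, adjusted p 0.0013), and CDKN3, a phosphatase of CDK2 (-0.74, adjusted p 0.0339). CCNA2 went from 85.5 ± 5.53 to 49.0 ± 1.00 CPM (SD, n = 3). Cyclin E transcripts were not called unpaired, at -0.35 for CCNE1 (adjusted p 0.459) and -0.66 for CCNE2 (adjusted p 0.152).

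Of the 13 genes of the RB family and the E2F factors, 2 fell with 5-Ad-IAA in NS1 cells and 0 rose (median -0.23), and the paired fit called 7 lower and 1 higher. E2F7, a repressive E2F factor, was at -0.89 (adjusted p 0.0056) and RBL1, the p107 gene, at -0.56 (adjusted p 0.0454). Among 18 E2F target genes of the G1/S step, which encode replication licensing factors and enzymes of nucleotide supply, 13 fell and 0 rose unpaired, and 18 fell in the paired fit (median -0.70). CDC6 went from 55.7 ± 9.87 to 30.4 ± 11.3 CPM (-0.88, adjusted p 0.0439), CDT1 from 54.1 ± 6.76 to 30.1 ± 10.2 CPM (-0.85, adjusted p 0.0476) and CDC45 from 26.1 ± 3.38 to 15.8 ± 2.00 CPM (-0.73, adjusted p 0.0080; SD, n = 3). In bulk RNA, fewer cells in S phase and less of these transcripts per cell cannot be told apart.

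Of the 14 FOXO factors and targets, through which loss of growth factor signalling is known to raise CDKN1B, 5 rose with 5-Ad-IAA in NS1 cells and 0 fell (median 0.72), and the paired fit called 11 higher. The 3 highest were PIK3IP1, an inhibitor of PI3 kinase (1.98, adjusted p 0.0478), ERBB3, a receptor of the EGFR family (1.97, adjusted p 0.0299), and CITED2, a transcriptional co-regulator (1.24, adjusted p 0.0104). CITED2 went from 78.8 ± 27.1 to 185.8 ± 26.0 CPM (SD, n = 3). IRS2 (1.22) and FOXO4 (1.13) were the other two called.

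The 18 p53 target genes moved in both directions, with 3 higher and 2 lower unpaired (median 0.06). BTG2, an antiproliferative gene, rose by 1.53 (adjusted p 0.0228), TP53INP1 by 1.34 (adjusted p 0.0114) and PHLDA3 by 0.58 (adjusted p 0.0498). AEN, a nuclease gene, was at -0.80 (adjusted p 0.0059) and FAS, the death receptor, at -0.54 (adjusted p 0.0398), while MDM2 was not called (-0.58, adjusted p 0.148).

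Of 12 SMAD target genes, 1 rose in NS1 cells with 5-Ad-IAA, TGFBI (0.60, adjusted p 0.0369), and the paired fit called 7 higher (median 0.29). Of 13 parts of ubiquitin ligases that act on G1 proteins, 3 fell: DTL (-0.77, adjusted p 0.0437), CKS1B, a cofactor in p27 turnover (-0.76, adjusted p 0.0072), and UBE2C (-0.75, adjusted p 0.0059). SKP2, which recognises p27, was at -0.60 (adjusted p 0.117). In WT cells 5-Ad-IAA gave 0 called genes in each of these 7 lists, with list medians from -0.12 for the FOXO list to 0.02 for the p53 list. In the FOXO list 13 of 14 genes lay below 0 in WT cells, whereas 12 of 14 lay above 0 in NS1 cells.

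**Figure D2:**
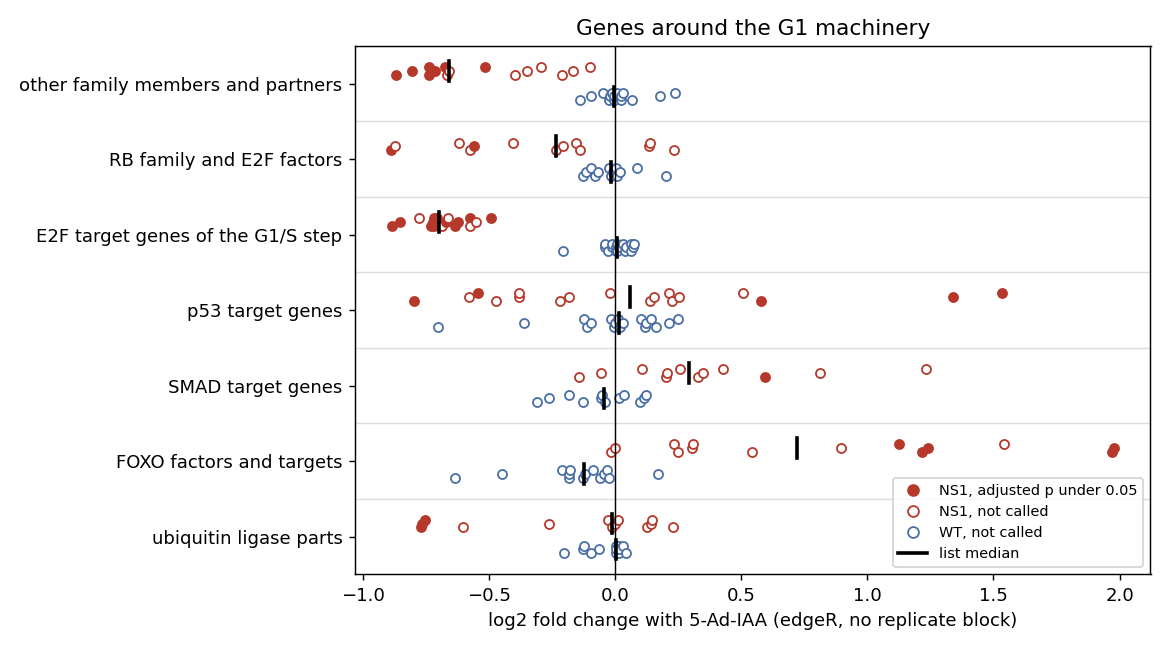
Log2 fold change with 5-Ad-IAA (x axis) of each gene in 7 lists around the G1 machinery, in NS1 and WT cells, from the unpaired edgeR fit; bars are list medians and filled points have an adjusted p under 0.05. In NS1 cells all 18 E2F targets lie below 0 with a median of -0.70, and the FOXO list has a median of 0.72.

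Between the untreated lines, the SMAD list was the one with the most calls, 8 of 12 genes higher in NS1 cells and 0 lower (median 0.80 beside 0.000088 over all genes). Over all genes 5.45% were called higher and 7.05% lower. TGFBI was 2.24 higher (24.4 against 116 CPM, adjusted p 5.63e-06), SMAD7, an inhibitory SMAD, 2.00 higher (adjusted p 9.14e-05) and ID2 1.67 higher (adjusted p 0.0284). The member CDKN2B, a TGF-beta target, was at -0.09 (adjusted p 0.917). This value rested on untreated NS1 replicate 1, where CDKN2B was low, and without that library it was 0.31 (edgeR adjusted p 0.589). Of the E2F targets 4 were lower, led by MCM7 (-0.83), TK1 (-0.72) and CDC45 (-0.52), and of the RB and E2F genes E2F8 (-0.84). In the FOXO list IRS2 (1.00), CITED2 (0.97) and FOXO3 (0.64) were higher, and in the p53 list DDB2 (-1.02) and SESN2 (-0.91) were lower. In the list of ubiquitin ligase parts RNF123 (0.34) and CUL4A (0.33) were higher and UBE2C (-0.47) and CUL1 (-0.41) lower. In the list of other family members 0 of 15 were called by edgeR.

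CDKN1C was set beside the genes next to it in the imprinted region, a list added after its values were seen. SLC22A18, a neighbour that is likewise transcribed mainly from the maternal copy, had 21.2 ± 1.59 CPM in untreated and 37.2 ± 3.27 CPM in treated NS1 cells (0.81, adjusted p 0.0067; SD, n = 3). PHLDA2, another maternally transcribed neighbour, was at -0.38 (adjusted p 0.358), NAP1L4 at -0.23 (adjusted p 0.163), OSBPL5 at 0.09 (adjusted p 0.793) and CARS1 at 0.04 (adjusted p 0.940). KCNQ1OT1, the antisense RNA of the region, was at 0 in 3 groups and at or below 0.0873 CPM in every library. Between the untreated lines OSBPL5 (-0.69, adjusted p 0.0092) and CARS1 (-0.67, adjusted p 0.0268) were lower in NS1 cells, where CDKN1C was higher, and SLC22A18 was at -0.03 (adjusted p 0.927).

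The genes whose level followed a member most closely over the 12 libraries were found by Pearson's r of log2 CPM, as a description over libraries that share groups and replicate numbers. For CDKN1C they were DHX32 (r = 0.978), NREP (0.976) and ACTR10 (0.974). For CDKN1B they were ITM2B (0.967), ALDH3B1 (0.966) and PLA2R1 (0.965). For CCND3 they were TACC3 (0.983), IKBIP (0.9804) and AREG (0.976), a growth factor gene. AREG averaged 3.07 CPM in untreated WT, 2.78 CPM in treated WT, 1.59 CPM in untreated NS1 and 0.541 CPM in treated NS1 cells.

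Cell markers moved in the same comparison as the members. With 5-Ad-IAA in NS1 cells 3 of the 13 cell markers tested rose and 0 fell unpaired, and the paired fit called 9 higher and 0 lower (median 0.51, with 12 of 13 above 0). Over all genes 2.76% were called higher unpaired and 13% in the paired fit. The 3 were GATA3, a gene of the urothelial lineage itself (30.9 to 78.2 CPM), PDGFRB, a fibroblast gene (2.31 to 11.8 CPM), and PECAM1, an endothelial gene (0.206 to 1.93 CPM). The leukocyte gene PTPRC stayed at or below 0.0873 CPM in all 12 libraries. The part of such shifts in the levels of the members was not tested.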

How the data were processed

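The authors deposited raw read counts, whole numbers for each gene, from 12 poly(A) RNA-seq libraries. Reads were processed with STAR 2.7.3a and featureCounts 1.6.4 on hg38, per the submitters' processing notes; the annotation, the settings and the use of strand are not given in the sources used here. Symbols were matched to 60306 of 60603 identifiers. GENCODE release 29 (GRCh38) gave positions and exon lengths; it lists 5 members under the same identifier version and 5 under another. Upstream sequences are from RefSeq on GRCh38.p14.

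Counts were fitted with edgeR 4.0.16 in R 4.3.3: filterByExpr, TMM scaling, one quasi-likelihood model of 12 libraries with a mean per group, glmQLFTest (two-sided) and Benjamini-Hochberg adjustment over 17775 genes, with calls at an adjusted p under 0.05. The standard error is the log2 fold change divided by the square root of F. CPM use TMM-scaled totals. DESeq2 1.42.0 served as an alternative. The edgeR step was tested on simulated data with the same dispersion for all genes and no difference between replicate numbers. That test does not bear on the disagreement between the paired and unpaired fits. A count of 0 allows up to 3 counts, and such limits cover counting error only. Replicate libraries differed by more than sampling noise.

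Replicate numbers were judged to pair libraries where deviations from group means correlated above 0.1 in all 3 pairs. Within a line the correlations were 0.72, 0.39 and 0.40 for NS1 and 0.75, 0.40 and 0.26 for WT cells. The fit with the number as a block within each line is therefore given beside the inducer comparisons. Treated replicate 3 with untreated replicate 2 gave 0.382 in NS1 and 0.385 in WT cells, and treated 2 with untreated 3 gave 0.297 and 0.257. With replicate 1 apart, replicates 2 and 3 deviate together under either matching, so the rule cannot tell whether these are paired. Between lines at least 1 correlation was below 0.1. Alternatives were RLE size factors, library totals, no filter, at least 10 counts in every library, the blocks, only the groups compared, DESeq2, and fits without single libraries or replicate numbers.

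The members and lists were chosen with earlier results of these data known. The text names the members, up to 3 called genes per list in each direction for the inducer in NS1 cells and for the untreated lines, and the 3 genes with the closest pattern (mean of at least 1 CPM) to each of 3 members: CDKN1C, called in the most comparisons, and CDKN1B and CCND3, which were called once, as was CDK4, and had the lower adjusted p for the inducer in NS1 cells. Shares without replicate 1 were added after seeing the data. A few genes of interest beside these were named after their values were seen: the neighbours of CDKN1C, CCNE1, CCNE2, MDM2, SKP2, IRS2, FOXO4 and the cell markers.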

Additional observations from a re-analysis of the deposited data

Results flagged for a closer look

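With the replicate number as a block within each line, edgeR called a different response to 5-Ad-IAA in NS1 and WT cells for 3 members. The same fit called 14% of all genes, and the rule used could not tell whether replicates 2 and 3 are paired. The changes within replicate numbers given here come from the same libraries as the fit, so they are not separate support for it. The interaction of CDKN1C was 1.97 (adjusted p 0.000237), and the change within replicate numbers was above 0 in 3 of 3 NS1 pairs and below 0 in 3 of 3 WT pairs. For CDKN1B it was 0.40 (edgeR adjusted p 0.0162), with NS1 pairs at 0.35, 0.29 and 0.37 and WT pairs at -0.04, -0.09 and -0.07. For CCND3 it was -0.40 (adjusted p 0.0173), with all NS1 pairs below 0 and WT pairs at -0.06, 0.11 and -0.06. None of the 3 was called in the unpaired edgeR fit, where CDKN1B had an adjusted p of 0.247, CDKN1C of 0.365 and CCND3 of 0.439.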

How the results depend on the processing

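For 5-Ad-IAA in NS1 cells 0 members were called, against 4 with the replicate block and 4 with the replicate block within line, 1 (CCND3) with library totals, 1 (CDKN1C) without a filter on low counts and 1 (CDKN1B) with DESeq2. Fits that left out a library or a replicate number gave 0 to 3, and with single libraries left out the change of CDKN1C ran from 0.68 to 2.42. For the untreated lines such fits gave 0 to 1 against 1, for the treated lines 1 to 5 against 4, and for the interaction 0 to 1 against 0. The interaction had 1 called member without a filter (CDKN1C) and 3 with the replicate block within line. Without a filter the SE for 5-Ad-IAA in NS1 cells went from 0.50 to 0.18 for CDKN1C and from 0.10 to 0.14 for CDKN1B. Their log2 fold changes stayed at 1.41 and near 0.33, so for these genes that fit differs in the estimate of spread, not in the size of the change. Every alternative run called 0 members in WT cells. Between the lines the numbers do not pair libraries by the rule used; the replicate block there called 1 member untreated and 5 treated, adding CDKN2C. RLE size factors, the filter of 10 counts in every library and the fits of only the groups compared changed no member's call. Between the treated lines CDKN1B lost its call without a filter (adjusted p 0.0512) and CDKN2C gained one without a filter (0.0426), with library totals (0.0429) and with DESeq2 (0.0486).

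Over all genes, 1093 were called for 5-Ad-IAA in NS1 cells, against 2421 and 4596 with the blocks, 1801 without a filter, 2021 without replicate 1, 0 without replicate 2 or 3 and 403 to 1253 with single libraries left out. For the untreated lines 2222 became 3908 with the block, 3466 without replicate 1, 204 without replicate 2, 182 without replicate 3 and 1198 to 2506 with single libraries left out. For the treated lines 5007 became 6670 with the block, 6007 without replicate 1, 1632 without replicate 2 and 2127 without replicate 3. The interaction had 4, against 634 and 2495 with the blocks, 683 without a filter, 356 with DESeq2, 33 with 10 counts in every library, 573 without replicate 1 and 0 to 147 with single libraries left out.

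Changes of sign concerned members that were not called, and their cause was not tested. In WT cells CCND3 was 0.0029 with RLE size factors, 0.00012 without a filter and 0.0029 with DESeq2, and CDKN2C was 0.0043, 0.0011 and 0.0044 in the same fits and 0.00044 with the replicate block within line. CDKN1A between the treated lines was -0.049 with library totals. With single libraries or replicate numbers left out, the log2 fold change with 5-Ad-IAA in NS1 cells ran from -0.39 to 0.072 for CDK6 and from -0.59 to 0.17 for CDKN2B. In WT cells it ran from -0.19 to 0.25 for CCND1, -0.063 to 0.083 for CCND3, -0.010 to 0.24 for CDK4, -0.13 to 0.13 for CDKN2B, -0.13 to 0.11 for CDKN2C and -0.15 to 0.42 for CDKN1A. Between the untreated lines it ran from -0.21 to 0.0052 for CDK4, -0.19 to 0.37 for CDK6, -0.37 to 0.31 for CDKN2B, -0.16 to 0.028 for CDKN2C, -0.40 to 0.13 for CDKN1A and -0.067 to 0.078 for CDKN1B. Between the treated lines it ran from -0.15 to 0.22 for CCND1, -0.55 to 0.13 for CDKN2B and -0.27 to 0.23 for CDKN1A. The interaction ran from -0.39 to 0.042 for CCND1, -0.25 to 0.38 for CDK6, -0.56 to 0.19 for CDKN2B and -0.15 to 0.42 for CDKN1A.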
